A study of Arabidopsis thaliana with 21 samples.

Results

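Roots of Arabidopsis thaliana Col-0 kept on sucrose plates were compared at a later harvest, ATGE_99, and an earlier one, ATGE_95. The comparison rests on 6 of the series' 21 ATH1 arrays, 3 for each harvest, and takes in all 22746 probe sets that are not Affymetrix controls. Both groups were roots of the same accession, raised at 20 °C under lights that stayed on, on a mineral nutrient medium (0.5x GM) to which the labels add 5% sucrose. The labels liken most ATGE_95 plants to 7-day-old plants of a reference sample and state no age for ATGE_99, which is known as a later harvest of the AtGenExpress developmental atlas. No genotype, treatment or day length differs between the groups. Harvest therefore coincides with plant age and with anything done to each set at its own time, and these cannot be told apart. Roots from 0.5x GM without the added sucrose (ATGE_94 earlier, likened to 7-day-old plants in the same way, and ATGE_98 later, both at 20 °C in continuous light) and from soil (ATGE_3 and ATGE_9, at 23 °C and 65% relative humidity in continuous light, ATGE_3 with soil in the sampled tissue) served to show where the change with sucrose differed. The labels do not say whether plants were pooled for an array or whether the arrays of a group came from separate cultures, so p-values measure only the spread between these samples.

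A young root is largely growing tissue: a meristem that divides, an elongation zone whose walls loosen, and a zone where epidermal cells put out root hairs. As the root system gets older, a larger share of it is mature tissue with a working vascular system, lateral roots and outer cell layers that store and release defence compounds. Sugars fed through the medium serve as fuel and as signals, and plants on them meet the demands of growth for phosphate, sulfur, nitrogen and iron from a fixed supply in the plate.

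The arrays of each harvest lay close together. Pearson's r over probe sets, whose values are not independent of each other, ran from 0.977 to 0.983 within ATGE_95, from 0.986 to 0.987 within ATGE_99 and from 0.929 to 0.935 between them. PYK10 (AT3G09260), the abundant β-glucosidase of root endoplasmic reticulum bodies and a root marker, was among the bright genes at both harvests, with a mean signal of 3362 ± 222 on ATGE_95 arrays and 3093 ± 31.1 on ATGE_99 arrays (SD, n = 3). The list of root tissue markers had 3 tested members, with a median log2 difference of −0.90 between the harvests. At adjusted p < 0.05 in limma, 2 of them fell and none rose, beside 20.0% of all tested probe sets that fell. Some technical measures moved with harvest. Median signals were 39.0 to 40.1 on the earlier arrays and 44.8 to 45.2 on the later ones. The 3'/5' signal ratio of the actin control, which rises as RNA is degraded or labelled short, was 3.17, 1.91 and 3.35 on replicates 1 to 3 of ATGE_95 and 1.46, 1.62 and 1.66 on those of ATGE_99. The 5S ribosomal RNA probe set read 28.1 ± 8.84 on the earlier and 61.8 ± 8.72 on the later arrays. ATGE_95 replicate 2, the array with the lowest ratio of its group, stood apart from replicates 1 and 3 on the second principal component, which held 10.3% of the variance of the 6 arrays. The part of these measures in the results was not tested.

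Later roots had many transcripts at another level. Of 15284 probe sets tested, 7327 (47.9%) passed adjusted p < 0.05 in limma, 4270 (27.9%) higher and 3057 (20.0%) lower at the later harvest. Changes of at least 2-fold were fewer, 719 (4.7%) higher and 252 (1.65%) lower, and 139 rose and 26 fell by at least 4-fold. Of the 719, 291 were dim on all 3 earlier arrays, meaning that the signal lay below each array's 40th percentile (22.9 to 24.1 on ATGE_95, 27.2 to 28.0 on ATGE_99), and 69 were dim on all later arrays. Of the 252, 31 were dim on all earlier and 93 on all later arrays. The split into higher and lower depended on scaling. As deposited, the median log2 difference of all tested probe sets was 0.08. It was −0.02 after quantile normalization, with 3227 called higher and 3723 lower, and −0.12 after each array was centred on its median, with 2346 higher and 5231 lower. The call was the same under all 3 scalings for 2283 higher and 2757 lower probe sets, among them 454 at least 2-fold higher and 236 at least 2-fold lower under each, and no called probe set had the opposite call after median centring.

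**Figure D1:**
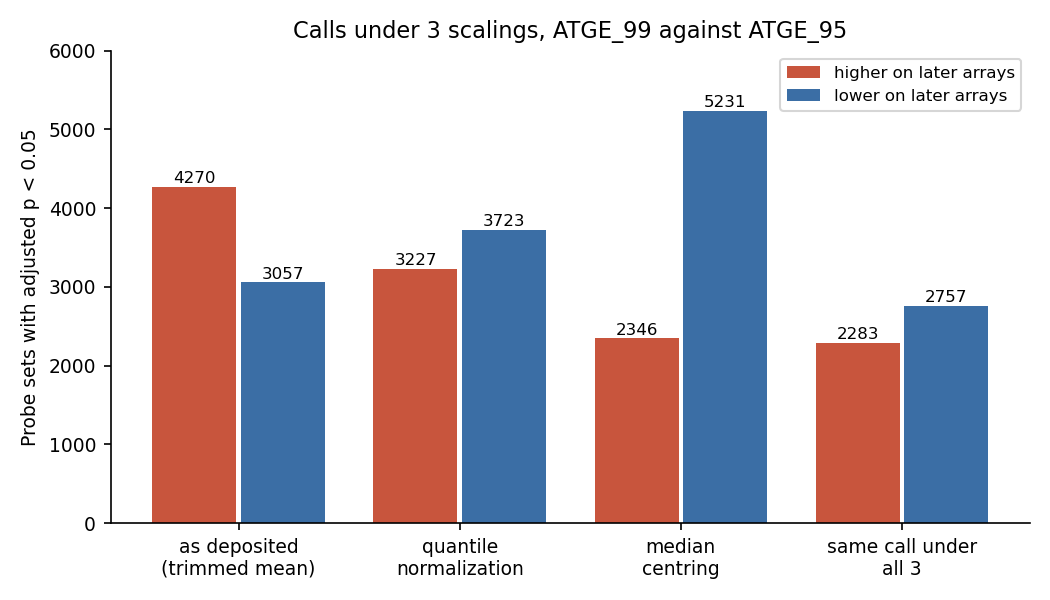
Number of probe sets with adjusted p < 0.05 (vertical axis, from 0) that were higher (red) or lower (blue) on ATGE_99 than on ATGE_95 arrays, as deposited, after quantile normalization, after median centring, and with the same call under all 3. The balance turned from 4270 against 3057 as deposited to 2346 against 5231 after median centring.

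The genes named first were chosen for the size of their change among those whose arrays did not overlap between the harvests, so the separation of their groups follows from the choice. The largest rises measured at both harvests included genes for a linker histone, transporters and extracellular enzymes. HIS1-3 (AT2G18050), a linker histone induced by drought and abscisic acid, gave signals of 94.9, 74.7 and 88.8 on the 3 earlier arrays and 822, 872 and 810.2 on the later ones. All later arrays lay far above the earlier ones, and the rise was 9.73-fold (log2 3.28 ± 0.12, SE). OCT1 (AT1G73220), a carnitine transporter of the plasma membrane, read 41.1, 34.1 and 45.9 and then 419, 305 and 441, a 9.57-fold rise. The groups were again fully separate, with a wider spread among the later arrays.

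AT4G14060, a member of the major latex protein family, went from 115, 81.0 and 98.8 to 603, 611 and 614, and AT5G19890, a class III peroxidase, from 31.9, 31.6 and 35.6 to 207, 193 and 197. These were rises of 6.27-fold and 6.03-fold. AT5G44400, a berberine bridge enzyme-like protein, read 26.9, 31.8 and 31.2 before 162, 163 and 171, 5.52-fold higher. AT1G78780, of a pathogenesis-related family, lay at 67.2, 57.5 and 62.5 and then at 296, 304 and 302, 4.83-fold higher, so that the 3 later arrays differed by less than the earlier ones.

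AT1G66760, a MATE-type efflux carrier, gave 42.9, 89.1 and 46.5 on the earlier and 296, 308 and 297 on the later arrays, a 5.34-fold rise. Its high earlier value came from ATGE_95 replicate 2, the array with the low actin ratio. AT1G24575 had the opposite pattern on the earlier arrays, 34.4, 18.3 and 33.3, before it reached 143, 152 and 141 (5.27-fold). Rises of 4.54-fold to 5.18-fold were measured for AT2G33850, AT1G19530, AT2G31945 and AT5G17340. AT1G19530 read 31.1, 19.7 and 15.5 on the earlier arrays, 1 of them above its 40th percentile, and 97.5, 100.2 and 104 on the later ones. Adjusted p for these 12 genes ran from 1.8e-15 to 1.9e-06.

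Other genes came up from a dim level, so that their folds are lower bounds, computed with each dim array at the higher of its 40th percentile and its own value. BGLU28 (AT2G44460), a β-glucosidase known for splitting glucosinolates when sulfur is short, read 6.57, 2.47 and 1.64 on the earlier arrays and 279, 290.3 and 258 on the later ones, at least 11.8-fold higher. AT3G05400, a sugar transporter of the ERD6-like group, read 22.7, 20.1 and 17.3 and then 248, 253 and 270.5, at least 10.96-fold higher. Both were dim on every earlier array and bright on every later one.

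AT1G52820, a 2-oxoglutarate-dependent oxygenase, went from 13.3, 17.0 and 18.9 to 119, 114 and 121, at least 5.03-fold. AT5G10210, AT1G67600 and the GRAS-family gene AT3G13840 were at least 3.74-fold, 3.50-fold and 3.21-fold higher. All 6 genes were dim on all 3 earlier arrays, and adjusted p ran from 5.9e-14 to 4.9e-07.

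**Figure D2:**
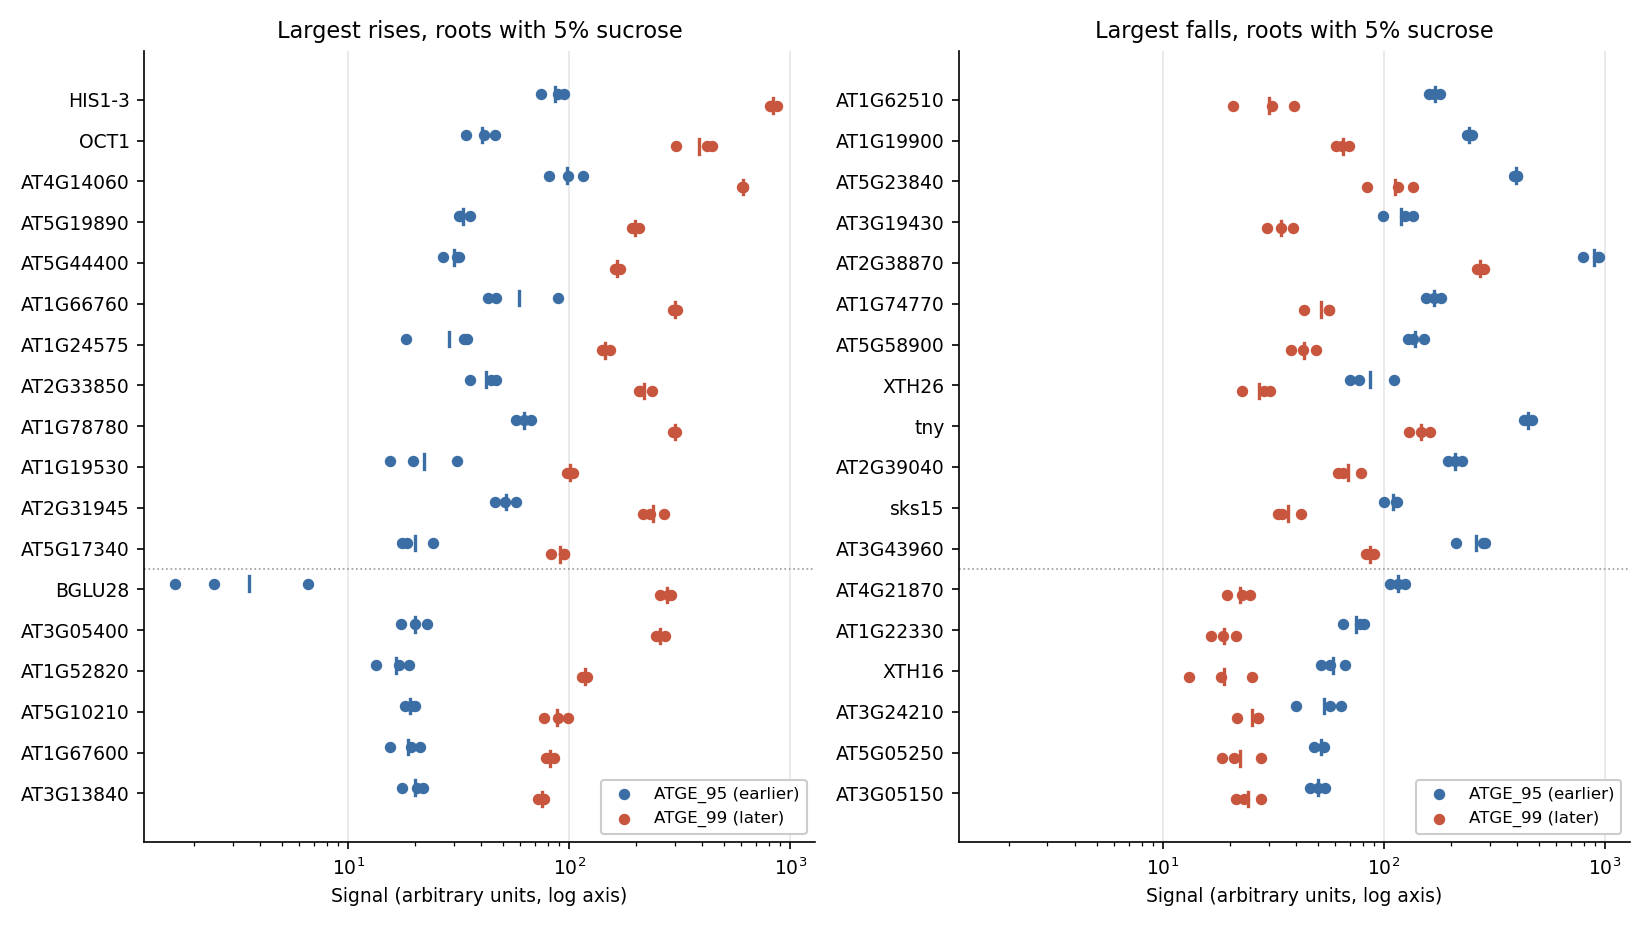
Signal of each array (points, log axis, arbitrary units) for the genes with the largest rises (left) and falls (right) at the later harvest, ATGE_95 in blue and ATGE_99 in red, with group means as short lines. Genes below the dotted line were dim on all arrays of 1 group. Genes were chosen among those whose arrays do not overlap between the groups, and HIS1-3 runs from 94.9 or below to 810.2 or above.

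The falls were smaller and took in extracellular and cell wall proteins. AT1G62510, of the lipid-transfer and seed-storage albumin type, read 159, 169 and 179 on the earlier arrays and 31.1, 39.1 and 20.7 on the later ones, a 5.77-fold fall. AT1G19900, a glyoxal oxidase-related protein, fell 3.75-fold, from 249, 238 and 242 to 64.2, 69.6 and 60.8. AT5G23840, with an MD-2-related lipid recognition domain, fell 3.62-fold, from 388, 399.7 and 399.8 to 83.4, 135 and 116.

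AT2G38870, a potato inhibitor I-type protease inhibitor, read 925, 797 and 941 and then 272, 282 and 263, 3.25-fold lower. AT1G74770, BRUTUS-LIKE1, an E3 ligase that holds back the iron deficiency response, read 154, 169 and 181 and then 43.5, 56.4 and 56.2, also 3.25-fold lower. The AP2/ERF transcription factor gene tny (AT5G25810) stood at 443, 468 and 431 before 130.1, 162 and 146, 3.07-fold lower. In each of these genes the lowest earlier array lay above the highest later one, as the choice of genes required.

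AT3G19430 fell 3.48-fold, from 98.5, 135 and 124 to 38.6, 34.2 and 29.6. The MYB-related gene AT5G58900 fell 3.19-fold, the class III peroxidase gene AT2G39040 3.07-fold, sks15 (AT4G37160), of a family related to multicopper oxidases, 2.99-fold, and AT3G43960, a papain-like cysteine protease, 2.98-fold. XTH26 (AT4G28850), an enzyme that cuts and rejoins wall xyloglucan and marks root hairs, read 69.8, 111 and 77.3 and then 30.5, 28.6 and 22.7, 3.12-fold lower (adjusted p = 0.030). That call was lost when any 1 of the 6 arrays was left out. That the arrays did not overlap was a condition for naming the gene and lends the call no support. The spread behind its p-value was taken over all 7 groups of the series, not from these 6 arrays alone. The other 11 falls had adjusted p of 3.9e-05 or below.

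Among genes that became dim, AT4G21870, a small heat shock-type protein, read 115, 107 and 125 and then 19.4, 24.7 and 22.8, at least 4.16-fold lower. AT1G22330, an RNA-binding protein, was at least 2.69-fold lower, from 65.3, 81.2 and 77.8 to 18.6, 21.3 and 16.4. XTH16 (AT3G23730) was at least 2.099-fold lower, and AT3G24210, AT5G05250 and AT3G05150, another ERD6-like sugar transporter gene, were at least 1.90-fold, 1.86-fold and 1.81-fold lower. Adjusted p for the 6 ran from 2.0e-10 to 1.6e-04. The ERD6-like genes AT3G05400 and AT3G05150 thus moved in opposite directions.

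Gene lists drawn up for root biology gave 36 with at least 3 tested members. They were drawn up with earlier results of these data known, so their counts are descriptions. The annotation names only part of the probe sets, so counts are over members that had a named and tested probe set, which for most lists is a minority of the list. A list's count is read beside the 27.9% of all tested probe sets that rose and the 20.0% that fell, and its median log2 difference beside their 0.08. Of the 36 lists, 19 had a median above and 16 below that of all tested probe sets, both as deposited and after quantile normalization, 20 held members that rose and members that fell, and 1 held no member that passed. The median of the lignin and phenylpropanoid list changed sides between these 2. Centring on the median moves all probe sets alike and cannot change a list's place.

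Most tested root hair genes were lower at the later harvest. Of 8 root hair members, XTH26 among them, 7 fell (median log2 −0.86), and 6 did so under all 3 scalings. EXPA7 (AT1G12560), a root hair expansin, read 318, 361 and 316 on the earlier arrays and 160.0, 158 and 139.8 on the later ones, a 2.17-fold fall. EXPA18 (AT1G62980), its close relative in function, fell 1.87-fold, from 447, 498 and 484 to 253, 264 and 246. The peroxidase gene AT1G30870 fell 1.61-fold, from 999, 1033 and 1112 to 718, 586 and 655. The summed signal of the 8 probe sets was 4506 to 4923 over the earlier and 2784 to 2919 over the later arrays, with none of them dim in either group. Without added sucrose it was lower, 1735 to 1836 on ATGE_94 and 1348 to 1382 on ATGE_98 arrays, with 1 member dim in each. Of the 8, 4 fell with harvest without added sucrose and 5 on soil, and none rose. These are bulk roots, in which fewer cells of a type and less RNA per cell cannot be told apart.

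Of 10 members of the cell cycle and DNA replication list, 5 fell and none rose (median −0.35), and these 5 fell under all 3 scalings. BUB3.1 (AT3G19590), of the mitotic spindle checkpoint, read 61.1, 57.9 and 59.9 and then 37.0, 39.6 and 42.5, 1.51-fold lower. PRL (AT4G02060), the MCM7 subunit of the replicative helicase, went from 106, 89.8 and 95.1 to 69.9, 69.9 and 68.7, 1.39-fold lower. SIM (AT5G04470), an inhibitor of cyclin-dependent kinases that turns cells to endoreduplication, fell 1.41-fold, and the mitotic kinase gene AUR1 (AT4G32830) 1.28-fold.

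Enzymes of wall loosening changed both ways. Of 22 expansin and XTH probe sets, 10 fell and 5 rose (median −0.01), 10 and 4 of them under all 3 scalings. Besides the root hair members, XTH33 (AT1G10550) went from 45.2, 35.6 and 50.7 to a dim 19.3, 23.7 and 16.8, at least 1.56-fold lower. EXPA4 (AT2G39700) went the other way, from 410.5, 513 and 418 to 769, 723 and 778, 1.70-fold higher.

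Genes of glycolysis and the TCA cycle were lower, and genes of sugar transport and of recycling were higher, in most tested members of their lists. In the starch and sucrose metabolism list 1 of 3 tested members rose and 1 fell (median −0.06). Of 8 glycolysis and TCA cycle members 7 fell and none rose (median −0.34), 5 of them under all 3 scalings, all by less than 2-fold. SDH2-1 (AT3G27380), an iron-sulfur subunit of succinate dehydrogenase, fell 1.501-fold, from 1039.9, 1082 and 947 to 698, 701 and 642. IDH-VI (AT3G09810), an NAD-dependent isocitrate dehydrogenase subunit, fell 1.45-fold, and TPI (AT3G55440), triose phosphate isomerase, 1.26-fold, from 2306, 2604 and 2437 to 1968, 1928 and 1919.

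Of 12 sugar transport members 10 rose and 1 fell (median 0.53), and 8 rose under all 3 scalings. The 1 fall did not pass after quantile normalization. The ERD6-like gene AT3G05150, which fell, is not among these members, so the count leaves it out. SFP1 (AT5G27350), a sugar porter, read 269.6, 317 and 279 and then 688, 658 and 655, 2.32-fold higher. SWEET13 (AT5G50800), which exports sucrose, rose 1.96-fold, from 32.6, 30.3 and 33.6 to 67.2, 61.0 and 61.0. SWEET17 (AT4G15920), a fructose facilitator of the vacuole, rose 1.38-fold and SWEET11 (AT3G48740), a sucrose exporter like SWEET13, 1.46-fold. Of the sugar starvation list 4 of 10 rose and 1 fell (median 0.01), and after median centring 2 rose and 4 fell.

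Autophagy genes, which act in the recycling of cell contents, rose in 8 of 10 members and fell in 1 (median 0.40), with 5 rises under all 3 scalings. ATG8B (AT4G04620), a ubiquitin-like protein of the autophagosome membrane, went from 95.8, 79.5 and 88.7 to 233, 225 and 213, 2.55-fold higher. Its relatives ATG8E (AT2G45170) and ATG8G (AT3G60640) were 1.52-fold and 1.55-fold higher.

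Most tested genes for photosynthesis, which in a root series also serve as markers of shoot tissue, were higher later. Of 12 members 8 rose and none fell (median 0.79), 6 of the rises under all 3 scalings, and 1 member was called lower after median centring. LHCB4.1 (AT5G01530), a light-harvesting protein of photosystem II, read 88.9, 103 and 104 and then 238, 205 and 195, 2.15-fold higher, and its relative LHCB4.3 (AT2G40100) rose 2.19-fold, from 26.2, 20.5 and 24.3 to 52.3, 55.1 and 47.7. PRK (AT1G32060), phosphoribulokinase of the Calvin cycle, came up from a dim 13.9, 18.7 and 13.1 to 48.8, 45.4 and 48.8, at least 2.03-fold, and PSBW (AT2G30570) rose 1.52-fold. The summed signal of the 12 probe sets was 765 to 893 on the earlier and 1147 to 1189 on the later arrays, against 1153 to 1285 on ATGE_94 and 1240.4 to 1412 on ATGE_98 arrays. PRK was the member that was dim on all earlier arrays, and none was dim on all later ones. Whether shoot tissue or root plastids carried this signal was not tested.

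Some organelle transcripts rose. Of 66 plastid-encoded probe sets 28 rose and 1 fell (median 0.40), and of 16 mitochondrion-encoded ones 9 rose and none fell (median 0.56), with 21 and 7 rises under all 3 scalings and 6 and 1 falls after median centring. For 34 of the 66 and 4 of the 16 the arrays of the groups overlapped, while over all tested probe sets 55.6% had arrays that did not. The spread within ATGE_95 was wide for some of them. The transcript psaA, for a core protein of photosystem I, read 50.6, 130.4 and 44.9 on ATGE_95 replicates 1 to 3, so that replicate 2, whose ratio was 1.91 against 3.17 and 3.35, lay at the level of the later arrays (146, 116 and 137). The psaA call (log2 0.99 ± 0.30, adjusted p = 0.0099) was lost without ATGE_95 replicate 1 (0.79) or replicate 3 (0.70). The part of the actin ratio in these counts was not tested.

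Lists of defence chemistry gave different counts. Of 12 berberine bridge enzyme-like members, oxidases several of which act on cell wall sugars or indole compounds, 8 rose and none fell (median 0.88), 7 of the rises under all 3 scalings, and 1 member was called lower after median centring. Besides AT5G44400, AT1G26390 went from a dim 7.13, 8.10 and 7.99 to 58.7, 66.5 and 54.9, at least 2.55-fold higher, and AT1G26380 from 7.93, 12.05 and 18.7 to 37.5, 30.1 and 34.3, at least 1.44-fold higher.

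Glucosinolate synthesis fell in all 4 tested members (median −0.69), 3 of them under all 3 scalings. AT2G31790, a glucosyltransferase of the pathway, read 202, 174 and 185 and then 68.8, 75.3 and 74.3, 2.56-fold lower. GSTU20 (AT1G78370) fell 1.86-fold, from 190.3, 143 and 193 to 92.5, 93.7 and 95.03, and BCAT4 (AT3G19710), which starts the elongation of methionine, 1.41-fold, from 406, 395 and 398 to 271, 289 and 290.4. UGT74B1 (AT1G24100), the glucosyltransferase of the core pathway, fell 1.16-fold, a call that was lost after quantile normalization (log2 −0.16) and without ATGE_99 replicate 1 (−0.15).

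Of 16 members of the list on glucosinolate breakdown and the PYK10 body 6 rose and 1 fell (median 0.18), beside the 27.9% of all tested probe sets that rose, with 5 rises under all 3 scalings and 5 rises and 5 falls after median centring. Its members that rose included BGLU28, BGLU44 (AT3G18080), a β-glucosidase that went from 83.3, 71.6 and 82.8 to 194, 184 and 192 (2.40-fold), and NAI1 (AT2G22770), the factor that sets up endoplasmic reticulum bodies, at 1.58-fold. PYK10 itself did not pass (log2 −0.12 ± 0.08, adjusted p = 0.25), although it did after median centring, as lower (−0.31). UDP-glycosyltransferases moved both ways, 5 of 30 higher and 11 lower (median −0.04). UGT88A1 (AT3G16520) rose 2.61-fold, from 48.8, 39.6 and 45.3 to 117, 107 and 125, UGT72E2 (AT5G66690), which glucosylates lignin precursors, rose 1.66-fold, and UGT71C1 (AT2G29750) fell 1.72-fold.

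In the defence list 3 of 9 members rose and 3 fell (median −0.02), the same 6 under all 3 scalings. PDF2.1 (AT2G02120), a defensin, rose 2.74-fold, from 79.1, 60.5 and 73.2 to 176, 209 and 195, while LCR68 (AT2G02130), a defensin encoded at the adjacent locus number, fell 2.26-fold, from 2107, 2028 and 2279 to 926, 967 and 948. ChiC (AT4G19810), a class V chitinase, rose 2.48-fold, from 261, 306 and 273 to 684, 678 and 715. Of the jasmonate list only JRG21 (AT3G55970), a 2-oxoglutarate oxygenase that inactivates jasmonate, was tested, and it read 0.545, 0.285 and 2.77 before 30.6, 27.3 and 30.6, at least 1.26-fold higher.

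The hormone and regulatory lists had few tested members. All 4 tested members of the gibberellin and brassinosteroid list rose (median 0.60), 2 of them under all 3 scalings. GID1A (AT3G05120), a gibberellin receptor, went from 67.7, 78.7 and 47.7 to 112, 122 and 111, 1.82-fold higher. The other receptors GID1B (AT3G63010) and GID1C (AT5G27320) rose 1.48-fold and 1.54-fold and the brassinosteroid receptor gene BRL1 (AT1G55610) 1.44-fold. Under both other scalings GID1C and BRL1 did not pass. The GID1C call (log2 0.62) was also lost without ATGE_95 replicate 3 (0.47), and that of BRL1 (0.53) without ATGE_95 replicate 2 (0.42) or 3 (0.52) or ATGE_99 replicate 1 (0.42).

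Of 3 members on abscisic acid and dehydration 2 rose and 1 fell. HIS1-3, described above, rose 9.73-fold, the dehydrin gene LTI30 (AT3G50970) rose 1.34-fold, from 864, 866 and 844 to 1146, 1191 and 1126, and the dehydrin gene COR47 (AT1G20440) fell 1.33-fold. In the auxin list 3 of 9 rose and 1 fell (median 0.33), with IAA18 (AT1G51950), a repressor of auxin response, 1.91-fold higher and LBD16 (AT2G42430), a factor of lateral root initiation, 1.47-fold higher. The member that fell was GH3.3 (AT2G23170), an enzyme that conjugates auxin to amino acids, at 18.4, 22.6 and 19.9 and then 6.98, 11.8 and 6.15, dim at both harvests and so without a fold. WRKY factors rose in 3 of 5 members (median 0.46). WRKY22 (AT4G01250) and WRKY53 (AT4G23810) came up from dim levels, at least 1.44-fold and 1.26-fold, and WRKY20 (AT4G26640) rose 1.37-fold. Of 7 bHLH members 4 rose and 1 fell (median 0.40), with 2 rises under all 3 scalings, and MYC3 (AT5G46760) and MYC4 (AT4G17880), which act in jasmonate signalling, were 1.64-fold and 1.75-fold higher. The member that fell was BHLH101 (AT5G04150), a factor of the iron deficiency response, at 10.2, 14.7 and 6.26 and then 1.74, 2.996 and 2.34, dim at both harvests.

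Tested members of the phosphate list rose and most of the iron list fell. Of the phosphate starvation list, 4 of 4 tested members rose under each scaling (median 1.52). This count is no independent support, since the list was chosen with earlier results known and OCT1 was already among the largest rises. They were OCT1, AT5G20790, from 125, 133 and 113 to 471, 491 and 571 (4.13-fold), AT5G04120, of the phosphoglycerate mutase family, from 79.9, 84.9 and 92.1 to 166, 188 and 161 (2.004-fold), and SAL2 (AT5G64000), a phosphatase, at least 1.73-fold. Of 5 iron deficiency members 4 fell under each scaling and none rose (median −0.43), 2 of them dim at both harvests. AT3G07720, a kelch-repeat protein of that list, fell 1.34-fold, from 191, 241 and 207 to 153, 150.4 and 175. The sulfur deficiency list had 3 tested members, of which 1, BGLU28, rose and 1 fell under each scaling (median 0.14).

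**Figure D3:**
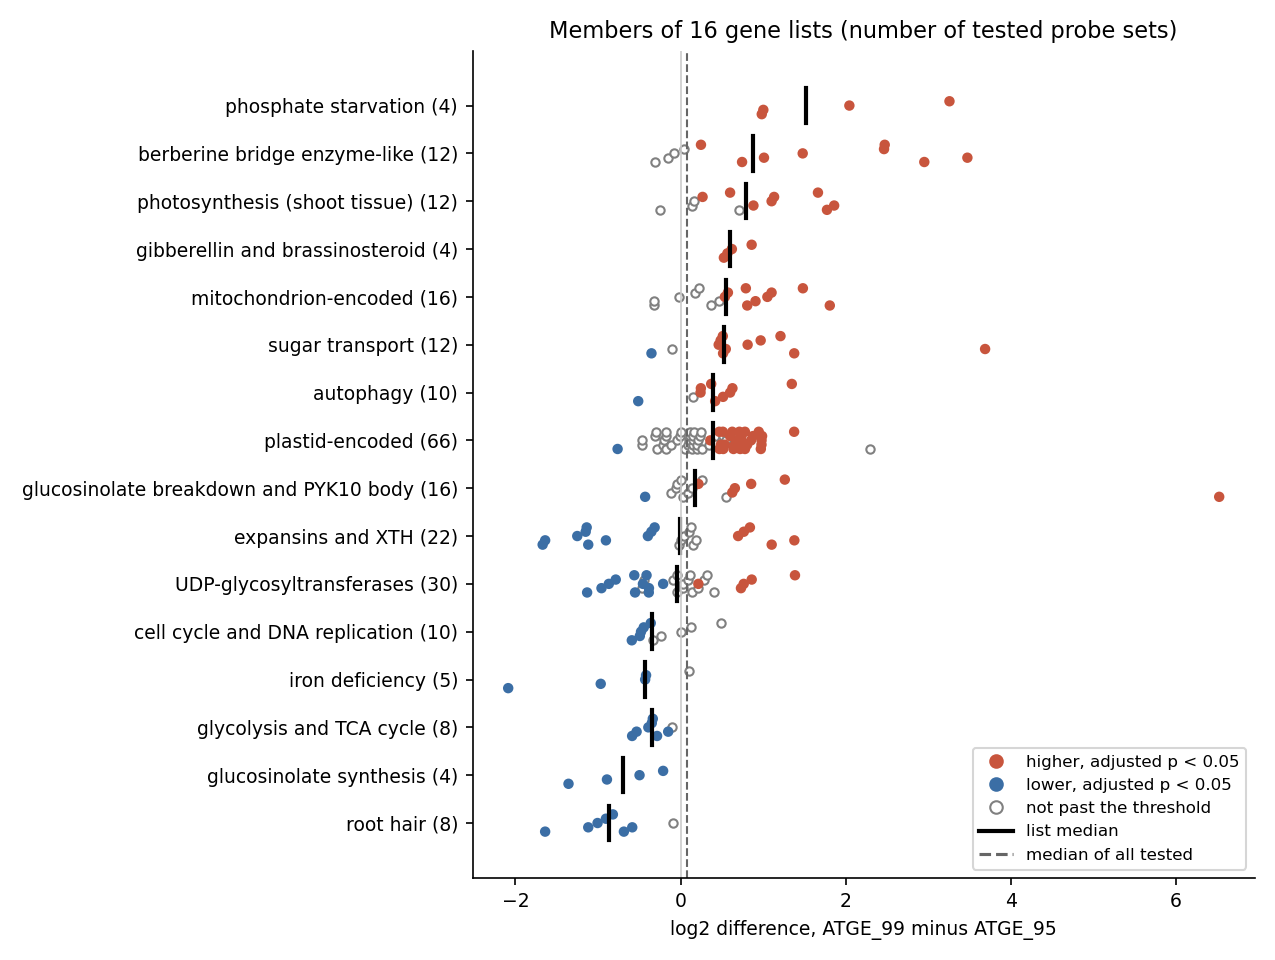
log2 difference between ATGE_99 and ATGE_95 (horizontal axis) of each tested member of 16 gene lists, with the number of tested probe sets in brackets. Filled points passed adjusted p < 0.05, black bars are list medians and the dashed line is the median of all tested probe sets (0.08). Root hair members lie to the left and phosphate starvation members to the right. The lists were chosen with earlier results of these data known.

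The same later-against-earlier comparison on 0.5x GM without added sucrose used other arrays, so its changes could be set beside those with sucrose. Without sucrose 6368 probe sets (41.7%) passed, 3253 (21.3%) higher and 3115 (20.4%) lower, and 3.51% and 1.3% were at least 2-fold higher and lower. Called the same way in both were 2230 higher and 1890 lower, or 56.2% of the calls with sucrose and 64.7% of those without, and 152 were called opposite ways. Over the 15284 probe sets the 2 differences correlated with r = 0.71 (rho = 0.66), across probe sets measured on the same arrays, which are not independent. Of the 719 at least 2-fold rises with sucrose, 551 also rose without it and 345 of these at least 2-fold. Of the 252 falls, 197 also fell and 86 at least 2-fold.

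The change with harvest differed between the media for 1911 probe sets (12.5%, test of the difference itself), a count that was 1237 without ATGE_94 replicate 1. Where an at least 2-fold rise with sucrose differed from that without, it was the larger with sucrose in 197 of 229, and for falls in 95 of 97. Both shares are descriptions, since these probe sets were chosen for a large change with sucrose.

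**Figure D4:**
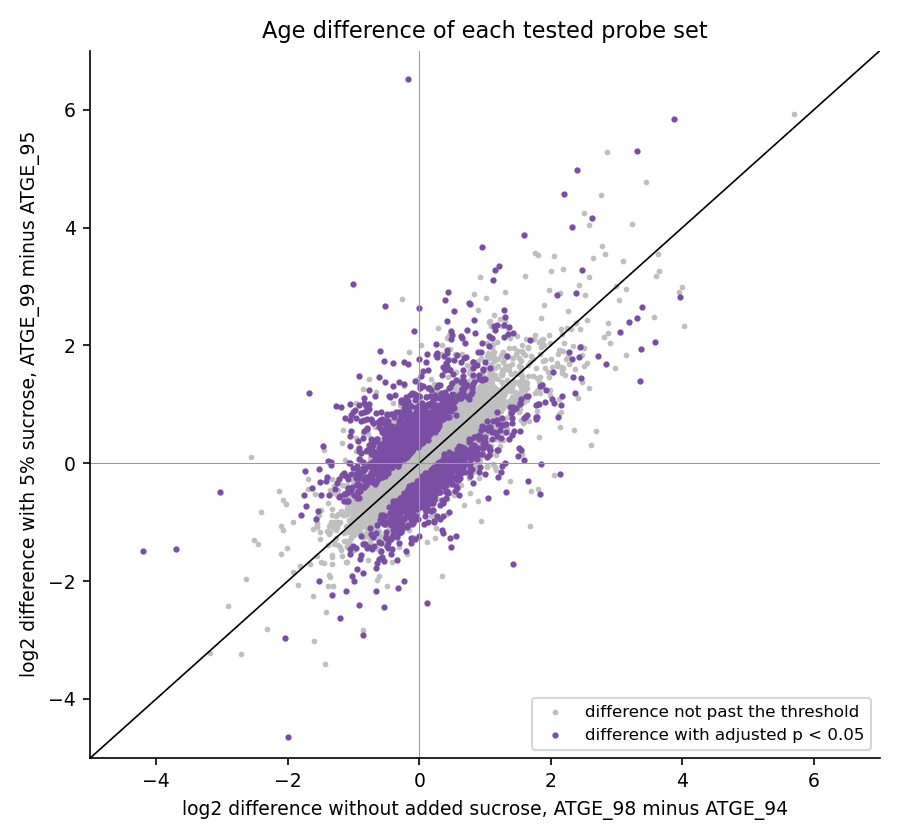
log2 difference of later against earlier roots for each of the 15284 tested probe sets, without added sucrose (horizontal axis, ATGE_98 minus ATGE_94) and with 5% sucrose (vertical axis, ATGE_99 minus ATGE_95). Purple points, 1911 in all, differed between the media at adjusted p < 0.05, and the line marks equal change. Most points lie along the line, and BGLU28, dim in 3 of the 4 groups, lies at the top.

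BGLU28 was dim on all arrays of ATGE_94 (4.03, 4.71 and 5.64) and ATGE_98 (6.98, 1.13 and 9.53), as on ATGE_95, and bright on ATGE_99 (adjusted p of the fitted difference 1.3e-05). With 3 of the 4 groups dim, the size of that difference is not measured. MGL (AT1G64660), methionine γ-lyase, stood at 275, 267 and 277 early and 291, 285 and 310.4 late without sucrose. With sucrose it read 58.1, 61.7 and 65.0 early and 214, 232 and 225 late, 3.63-fold higher (adjusted p of the difference 3.2e-10). Its later level with sucrose thus approached the level that roots without sucrose held at both harvests.

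AT1G19530 behaved in a similar way, at 163, 182 and 196 early and 163, 181 and 167 late without sucrose. AT1G66760 moved from 149.7, 117 and 82.9 to 154, 138 and 165 without sucrose, which did not pass (adjusted p = 0.085). AT3G07350 fell without sucrose, from 104, 86.2 and 114 to 53.6, 65.8 and 72.0, and rose with it, from 92.9, 61.8 and 98.9 to 171, 195 and 181. LHCB4.3 stayed between 23.3 and 28.7 on all 6 arrays without sucrose. That is near their 40th percentiles, 23.2 to 24.9 on ATGE_94 and 25.5 to 26.8 on ATGE_98, so a steady level is not shown. GID1A read 142, 116 and 103 early and 109, 91.1 and 124 late without sucrose, a level that the roots with sucrose reached at the later harvest.

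Opposite differences were also measured. AT5G28630 fell 2.42-fold with sucrose, from 139, 101 and 122 to 47.4, 47.7 and 53.5, and rose 1.38-fold without it. ATC (AT2G27550), a relative of TERMINAL FLOWER 1, fell 1.85-fold with sucrose, from 280.3, 241 and 269.7 to 138, 137 and 152, and rose 1.29-fold without. AT2G43550 and AT3G57450 followed the same pattern, with falls of 1.78-fold and 1.45-fold and rises of 1.37-fold and 1.52-fold. AT4G21870 remained at 40.6 to 55.4 on the 6 arrays without sucrose, while it became dim with it.

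Several genes of the lists differed as well. AT2G31790 changed 1.23-fold without sucrose, from 77.1, 70.1 and 71.0 to 63.4, 55.1 and 58.3, so that its later level with sucrose, 72.8 ± 3.48 (SD, n = 3), lay beside its earlier level without, 72.7 ± 3.80. BCAT4 gave 126, 140.4 and 143 and then 147, 164 and 153 without sucrose (adjusted p = 0.062), below both harvests with sucrose. Of the gibberellin and brassinosteroid list 3 of 4 members differed between the media, of glucosinolate synthesis 3 of 4, of photosynthesis 4 of 12, of sugar starvation 6 of 10, of defence 6 of 9, all 6 more negative with sucrose, of expansins and XTH 7 of 22 and of autophagy none of 10, beside the 12.5% of all tested probe sets.

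**Figure D5:**
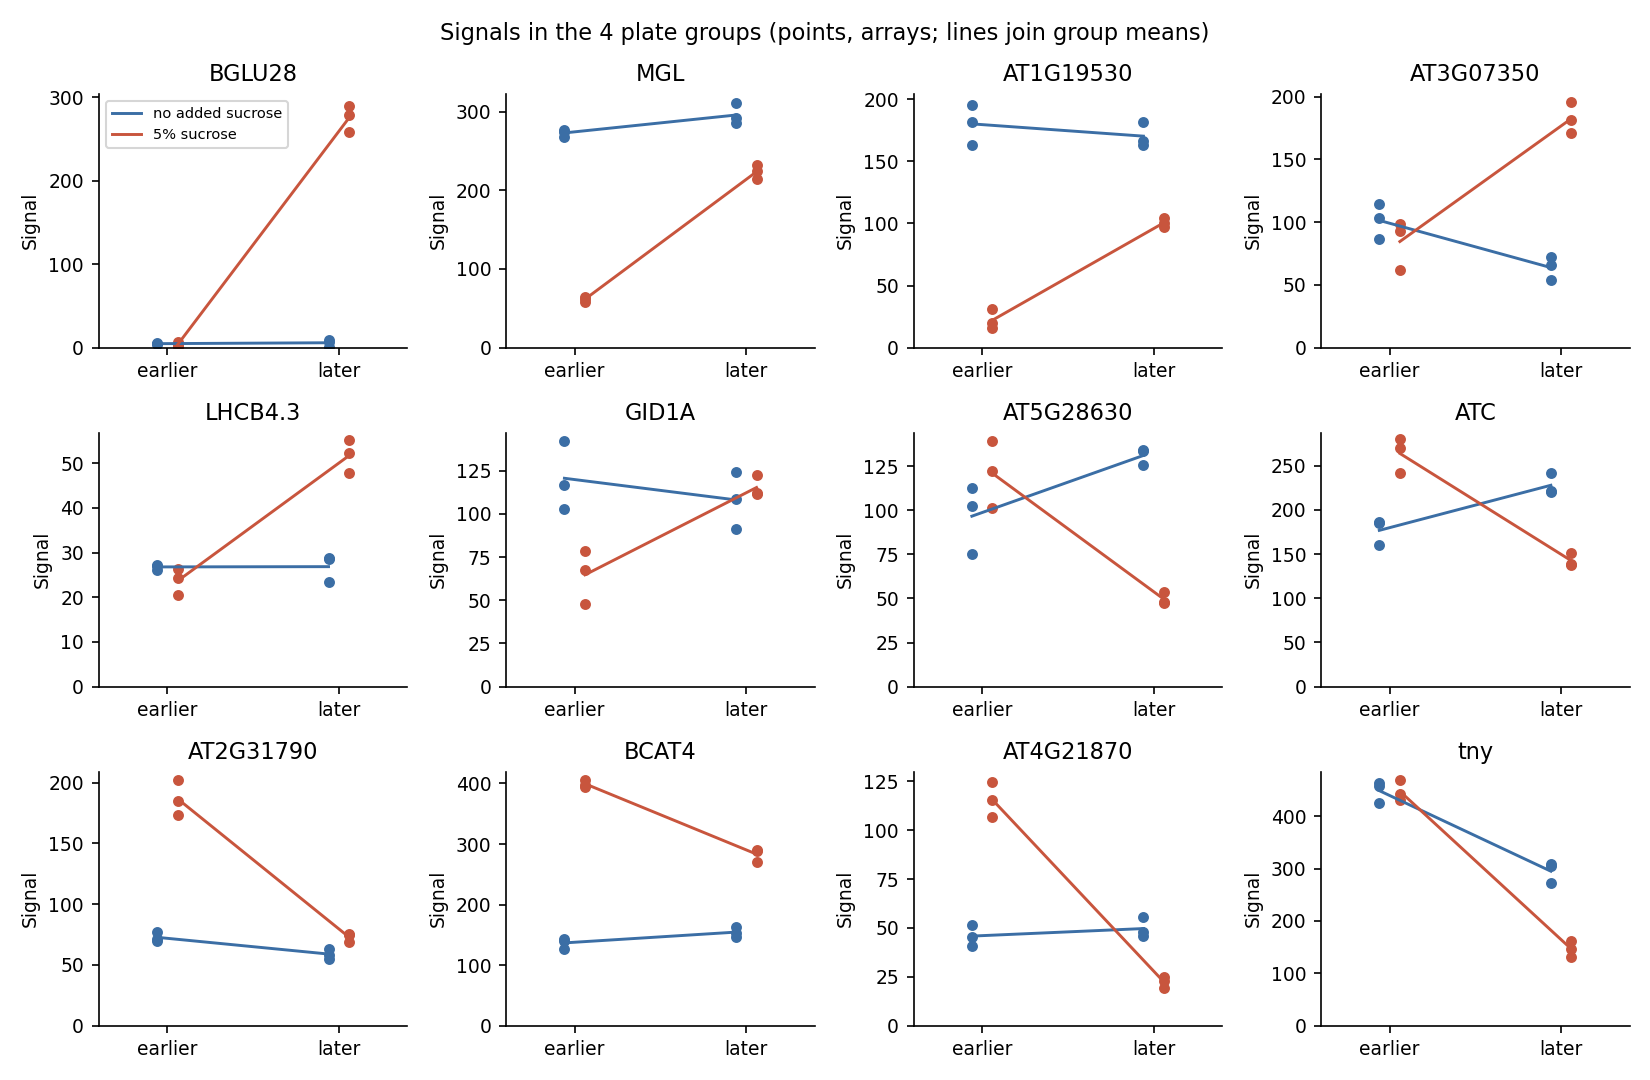
Signal (vertical axis, from 0, arbitrary units) of 12 genes at the earlier and later harvest without added sucrose (blue, ATGE_94 and ATGE_98) and with 5% sucrose (red, ATGE_95 and ATGE_99). Points are arrays and lines join group means. BGLU28 rises with sucrose alone, MGL and AT1G19530 start low with sucrose and rise, and AT5G28630 and ATC move in opposite directions on the 2 media.

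Some of the genes with the largest differences between the media had replicates that spread widely within ATGE_95. AT2G07360, of the endocytic TPLATE complex, read 36.7, 74.2 and 25.6 on ATGE_95, AT3G55020, of the RabGAP family, 33.4, 81.0 and 33.3, and nad4, a mitochondrial complex I subunit, 319, 150.1 and 280.4. For rpl20, a plastid ribosomal protein, they were 211, 143 and 204. In these 4 genes and in psaA, replicate 2, with its low actin ratio, lay outside the range of the other 2 replicates, and the arrays of ATGE_95 and ATGE_99 overlapped. The genes are given here for their spread, and any 1 replicate often lies outside the range of the other 2. How often replicate 2 did so over all tested probe sets was not counted. Between the harvests AT2G07360 rose by log2 0.77 ± 0.29 (SE, adjusted p = 0.031) and AT3G55020 by 0.73 ± 0.28 (adjusted p = 0.036). Both calls were lost without ATGE_95 replicate 1 (0.69 and 0.51) or replicate 3 (0.43 and 0.51), without any 1 of the ATGE_99 arrays and under both other scalings, and both were kept without ATGE_95 replicate 2 (1.196 and 1.15). The part of the ratio was not tested.

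On soil, where both harvests came from another temperature and substrate, 4081 probe sets (26.7%) passed between ATGE_9 and ATGE_3, 11.4% higher and 15.3% lower at the later harvest. The differences correlated with those on sucrose plates with r = 0.17 (rho = 0.23) across probe sets. Of the 719 at least 2-fold rises with sucrose, 191 also rose on soil and 110 fell, and of the 252 falls 88 also fell and 42 rose. The change differed between sucrose plates and soil for 5024 probe sets (32.9%).

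AT5G44400, which rose with sucrose, fell on soil from 505 ± 28.7 to 169.7 ± 16.7 (SD, n = 3). AT4G01390, of the TRAF-like family, rose 4.06-fold with sucrose, from 77.1, 83.9 and 89.0 to 318, 353 and 344, and fell on soil from 171 ± 17.3 to 43.7 ± 1.31. AT1G59740, an NPF-family transporter, rose 3.53-fold with sucrose and fell on soil from 166 ± 8.32 to 37.5 ± 4.33. In the other direction, AT3G19430 fell with sucrose and rose on soil from 31.0 ± 2.53 to 167 ± 29.5. AT1G14200, a RING-type protein, rose on soil from 33.2 ± 3.77 to 604 ± 47.5, against 76.2 ± 7.51 and 106 ± 2.26 with sucrose, and AT5G48570, the co-chaperone ROF2, from 43.1 ± 2.17 to 453 ± 7.92, against 65.2 ± 7.59 and 54.6 ± 0.516 with sucrose. These 6 genes were chosen as the largest differences between the 2 substrates, 3 each way, among probe sets that passed. That the difference passed for all 6 therefore follows from the choice.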

How the data were processed

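Total RNA from Col-0 roots was hybridised to ATH1 arrays, 3 for each of 7 groups. The deposited values are MAS5 intensities, per the submitters' processing notes, 1 column per array, and each array is scaled to a 2% trimmed mean of 100 as the values show. The sources used here give no version or settings for MAS5. Replicates were not pooled by the authors in the deposited intensity tables.

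Of 22810 probe sets, 64 controls were left out, and 15284 were tested, those whose signal exceeded the 40th percentile of the array on 3 or more of 21 arrays. Values were taken to log2 and fitted with limma 3.58.1 in R 4.3.3 (7 group means, 14 residual degrees of freedom, eBayes with trend), with Benjamini-Hochberg adjustment over all tested probe sets. Changes on different media were compared by contrasts of the same fit. Tables were made in Python 3.11.15. The fit was tested on simulated data. A probe set below the 40th percentile on all 3 arrays of a group was called dim, and its fold is a lower bound. A measured fold is the ratio of the groups' geometric means.

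Of all probe sets, 13513 carried 1 gene, 503 several and 8730 none in the platform annotation, and 13436 matched a current gene in RefSeq's table. Genes named in the text are the 12 largest measured and 6 largest bounded rises and falls, the 6 largest differences each way from plates without sucrose and 3 each way from soil, and up to 4 members of each list with the smallest adjusted p, or any member of a list with 5 or fewer tested. All had 1 annotated gene, and the rises and falls had arrays that did not overlap. Members and lists were chosen with earlier results of these data known. From the lists, 9 entries whose symbol belongs to another gene were removed, and lists of ABC transporters, MYB factors, aquaporins and suberin had no tested member. Alternatives covered scaling, filters, the pseudocount, the variance model, the samples fitted, the replicate letters and single arrays left out.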

Additional observations from a re-analysis of the deposited data

Results flagged for a closer look

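Genes named in the text are given here where the change between harvests differed between media in the test of the difference itself (limma, adjusted p < 0.05), among 12.5% of all tested probe sets for plates without sucrose and 32.9% for soil. The change was more positive with sucrose by a log2 difference of 2.33 for AT1G19530, 1.99 for AT1G66760, 1.90 for psaA, 1.90 for AT2G07360 and 1.81 for AT3G07350. The next values were 1.79 for AT3G55020, 1.75 for MGL, 1.21 for AT3G07720, 1.14 for LHCB4.3 and 1.02 for GID1A. Smaller positive differences were 0.82 for HIS1-3, 0.81 for GID1C, 0.78 for AT2G31945, 0.74 for GID1B and 0.53 for LTI30. Last in this direction came 0.50 for LHCB4.1 and 0.48 for AT1G59740. AT1G19530 was above the 40th percentile on 1 of the 3 ATGE_95 arrays, and LHCB4.3 without sucrose lay near it, so both sizes are uncertain.

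The change was more negative with sucrose by −1.94 for rpl20, −1.74 for AT5G28630, −1.33 for nad4, −1.28 for AT2G43550 and −1.26 for ATC. Further values were −1.14 for AT3G57450, −1.05 for AT2G31790, −1.05 for AT2G38870, −1.01 for PDF2.1 and −1.01 for tny. Smaller negative ones were −0.99 for AT5G23840, −0.89 for AT1G19900, −0.85 for AT3G19430, −0.84 for GSTU20 and −0.74 for AT4G14060. Last in this direction came −0.71 for AT2G39040, −0.67 for BCAT4, −0.66 for LCR68, −0.52 for ChiC, −0.45 for PYK10 and −0.39 for EXPA18.

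Other genes also passed, but were dim on all arrays of at least 1 of the 4 plate groups, so that their fitted differences give a direction and no measured size. The fitted values were 0.77 for AT1G52820, 1.09 for AT1G67600, 1.22 for AT5G04120, 1.69 for AT5G17340, 1.35 for AT5G20790 and 6.70 for BGLU28. On the negative side they were −1.0047 for AT1G22330, −0.79 for AT1G24575, −2.50 for AT4G21870, −0.85 for AT5G44400 and −1.49 for XTH33.

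Against soil, the change with sucrose was more positive by 3.97 for AT1G59740, 3.98 for AT4G01390 and 4.04 for AT5G44400. It was more negative by −3.71 for AT1G14200, −4.22 for AT3G19430 and −3.64 for AT5G48570. Groups of 3 arrays are too small for a test of single outlying arrays. No explanation was tested for any of these differences.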

How the results depend on the processing

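The total of calls between harvests, 7327, ran from 5094 to 7577 over 15 alternative settings: 7304 with a replicate block, 7218 without the variance trend, 7091 from the groups compared alone, 6950 after quantile normalization, 7577 after median centring, 7476 without a filter, 7470 with a pseudocount, 5956 above the 60th percentile, 6264 to 6807 with an array left out, and 5094 with ATGE_95 represented by replicate 2 alone, chosen after seeing the data. The calls higher (3614 to 3893 with an array left out) numbered 2346 after median centring, and the calls lower (2650 to 2914) 5231. At least 2-fold higher were 459 above the 60th percentile, 474 after median centring and 1162 without a filter (704 to 754 with an array left out). At least 2-fold lower were 488 after median centring and 163 with the pseudocount (237 to 269). Fewer genes are tested under the stricter filter, and for the others the cause was not tested. Leaving out an array gave 5352 to 6008 calls without sucrose, 3271 to 3523 on soil, 1237 to 2603 for the difference from plates without sucrose, the 1237 without ATGE_94 replicate 1, and 4388 to 4870 for the difference from soil. Of 106 named genes past the threshold, 9 lost the call under at least 1 alternative that kept 2 or more arrays a group, and 14 with the setting on replicate 2 alone counted. The setting with replicate 2 alone rested on a lone array, assumed to vary like the other groups and picked for its actin ratio. It put AT2G07360 at log2 −0.080 and AT3G55020 at −0.13. Both genes were shown for the spread of replicate 2 from the other ATGE_95 arrays, so these values follow from the choice. The part of the ratio was not tested by this setting. Of 49 named differences from plates without sucrose 7 were lost, and of 6 from soil none. The letters A, B and C did not pair the samples: deviations of same-letter arrays of ATGE_95 and ATGE_99 correlated at −0.0067, 0.0066 and 0.0528. Arrays with low signal limit the precision of dim probe sets, and 3 arrays a group that of all.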
